A study of Homo sapiens with 4 samples.

Results

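Broad domains of H3K27 acetylation were described in SK-N-BE(2)C, a *MYCN*-amplified neuroblastoma cell line of the adrenergic state, as the peaks of 2000 bp or more in the ChIP-seq peak list of control cells (sgCtrl). Of 62823 sgCtrl peaks on chromosomes 1 to 22, with the amplified stretch around *MYCN* on chromosome 2 left out, 211 had that length, which was 0.336% of the list. The study compared sgCtrl cells, a clone that received a non-targeting guide RNA and whose genotype is labelled wildtype, with cells that received Cas9 and a pair of guide RNAs against *SNHG1*, a long noncoding RNA that hosts small nucleolar RNAs (sgSNHG1, labelled as a knockout). Both kinds of cells were selected with puromycin and grown as clones, and 2 samples of each group were assayed with an antibody against H3K27ac. The study describes several depletion clones in which *SNHG1* expression was lowered and not lost, and the clone behind the ChIP-seq samples is not named in the sources used here. Both samples of a group were combined by the authors before peaks were called, so that each group has 1 list, no value has a replicate error and no test between groups was possible. Intervals given with shares are 95% Wilson intervals and cover counting error only.

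Acetylation of lysine 27 on histone H3 is deposited by the acetyltransferases p300 and CBP and marks active promoters and enhancers. Most marked regions are short and flank a nucleosome-free site where transcription factors bind. Long marked stretches are known from the promoters of highly used genes, where the mark spreads into the first part of the gene, and from clusters of enhancers around genes of cell identity. The domains here were called broad by the length of a single peak alone, and none was longer than 4059 bp.

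The following reference sequences are shown as single examples that differ in base composition and repeat content. They do not stand for the whole set. Of the 211 domains, 197 had a GC content of 60% or more, and 16 were made of stretches that recur in the reference. Each sequence shown has 200 bases without annotated exons, on the plus strand of hg38 (GRCh38), with each CpG in capitals. It was taken as close to the domain's summit as could be had, which for the longest domain was 2580 bp away. They come from the longest domain on chromosome 5, from the domain over the homeobox gene *SIX3*, from the domain at *LDHD*, from the longest domain without an annotated gene and from the domain at *CDT1*.
longest domain, chr5:34189856-34190055: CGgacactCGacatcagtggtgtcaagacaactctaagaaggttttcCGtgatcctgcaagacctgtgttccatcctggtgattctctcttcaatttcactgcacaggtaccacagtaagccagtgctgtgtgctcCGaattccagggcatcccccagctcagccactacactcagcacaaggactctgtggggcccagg
SIX3, chr2:44942911-44943110: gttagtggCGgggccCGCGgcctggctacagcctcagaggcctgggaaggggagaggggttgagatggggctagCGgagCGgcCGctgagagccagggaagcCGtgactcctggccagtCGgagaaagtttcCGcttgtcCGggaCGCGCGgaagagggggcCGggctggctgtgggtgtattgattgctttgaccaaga
LDHD, chr16:75114304-75114503: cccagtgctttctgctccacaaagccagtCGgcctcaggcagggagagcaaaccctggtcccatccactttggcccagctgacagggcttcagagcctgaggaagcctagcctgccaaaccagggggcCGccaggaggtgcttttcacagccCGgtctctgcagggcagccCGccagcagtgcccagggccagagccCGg
longest without a gene, chr16:46398813-46399012: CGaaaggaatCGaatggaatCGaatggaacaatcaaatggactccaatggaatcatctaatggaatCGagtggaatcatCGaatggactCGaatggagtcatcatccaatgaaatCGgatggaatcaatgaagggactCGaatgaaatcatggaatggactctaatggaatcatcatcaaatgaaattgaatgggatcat
CDT1, chr16:88804060-88804259: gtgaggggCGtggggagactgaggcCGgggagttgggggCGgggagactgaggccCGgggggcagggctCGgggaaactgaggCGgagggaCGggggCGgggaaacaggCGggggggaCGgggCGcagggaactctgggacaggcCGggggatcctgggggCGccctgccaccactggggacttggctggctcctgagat
The stretch at *SIX3* held 14 CpGs at a GC content of 66.0%, and the one at *CDT1* held 13 at 74.5%. The stretch at *LDHD*, where little of the domain was left in the sgSNHG1 list, had the same GC content as that of *SIX3* with 5 CpGs. The stretch without a gene was made of repeats of a short unit around the letters GGAAT, with a GC content of 39.0%.

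The length limit cut through a continuous range. The lengths of the 211 domains ran from 2000 to 4059 bp with a median of 2218 bp, and together they spanned 490079 bp. The 3 shortest domains had 2000, 2001 and 2001 bp, of which sgSNHG1 peaks covered 84.8%, 100% and 89.0%. The 3 longest peaks that were left out were 1, 2 and 5 bp under the limit and were covered over 97%, 78.1% and 84.0%. In the sgSNHG1 list, 137 of 49178 peaks had 2000 bp or more, or 0.279%. The number of such peaks was 0.649 times that of the sgCtrl list, and the number of all peaks was 0.783 times.

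The domains were long without being high. The fold enrichment compares the signal at a peak's summit with the background that the peak caller set against it, and the sources used here do not say whether an input library entered that background. It had a median of 3.98 over the domains, 4.96 over sgCtrl peaks of 1000 to under 2000 bp and 3.75 over all sgCtrl peaks. The −log10 of the peak's p-value, which grows with height and depth, had a median of 45.6 over the domains and 14.7 over all peaks. The lowest fold enrichment of a domain was 2.10, in the body of *PLEC*. The highest were 11.7 at the start of *WAC*, a regulator of histone H2B ubiquitination, and 10.8 at that of *GNAQ*, a G protein subunit. These 3 genes were picked for their height after the values were seen.

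The domains lay over gene starts and exons more often than the list as a whole. A start site of a protein-coding transcript was overlapped by 71 of the 211 domains (33.6%, interval 27.6 to 40.3), against 10.8% of all sgCtrl peaks and 30.3% of those of 1000 to under 2000 bp, a share within the interval of the domains. A further 12 overlapped the start site of a lncRNA only, 95 overlapped an exon and no such start site (45.0%, against 29.4% of all peaks), 16 lay in introns only (7.58%, against 38.3%) and 17 overlapped no annotated gene (8.06%, against 19.5%). Of the peaks of 1000 to under 2000 bp, 31.9% overlapped an exon and no such start site, 22.5% lay in introns only and 11.4% overlapped no gene. Of the bases of the domains, 43.7% were exonic, against 28.9% of those of all peaks. A longer peak meets more start sites and exons by its length alone, and no correction for length was made.

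Exonic stretches were long in part of the domains. In 45 of 211 domains, 1000 bp or more lay within 1 exon of a protein-coding transcript, and 21 domains were exonic from end to end. The end of a protein-coding transcript was overlapped by 31 domains (14.7%, interval 10.5 to 20.1), by 7.02% of the peaks of 1000 to under 2000 bp and by 2.79% of all peaks. The domain of 3491 bp at *APC2*, a neuronal relative of the tumor suppressor gene *APC*, and *C19orf25* lay wholly in 1 exon. The same held for the domain of 2569 bp at *TSC22D2* and for that of 2524 bp at *CENPB*, which encodes a centromere protein, both named after their values were seen. The domain of *CD248*, a single-exon gene for a membrane glycoprotein of pericytes, spanned 3612 bp, of which 2549 bp lay in its exon, and ended 2 bp from the start site.

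Domains were frequent near chromosome ends. The GC content had a median of 66.3% over the domains, 66.3% over the peaks of 1000 to under 2000 bp and 63.9% over all sgCtrl peaks. In 197 domains it was 60% or more (93.4%, against 85.2% and 71.7%). The observed over expected number of CpGs had a median of 0.478 over the domains, 0.521 over the peaks of 1000 to under 2000 bp and 0.392 over all peaks. Within 5 Mb of a chromosome end lay 93 domains (44.1%), against 25.2% of the peaks of 1000 to under 2000 bp and 21.8% of all peaks. Chromosome 17 held the most domains with 28, or 13.3% of the domains against 6.42% of all sgCtrl peaks. By number, chromosome 2 followed with 20 (9.48% against 8.56%), chromosome 8 with 19 (9.00% against 6.22%) and chromosome 19 with 16 (7.58% against 4.53%). Per 1000 peaks, these were 6.94 domains on chromosome 17, 3.72 on chromosome 2, 4.86 on chromosome 8 and 5.62 on chromosome 19. Of the 19 domains on chromosome 8, 14 lay within 5 Mb of an end of the chromosome. Chromosome 18 held 1 domain, at *ZNF516*.

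Every domain had at least 1 base under an sgSNHG1 peak, as had 61.2% of all sgCtrl peaks and 96.2% of the peaks of 1000 to under 2000 bp. The share of a domain's bases under sgSNHG1 peaks had a median of 86.5% with quartiles of 68.3% and 98.8%, and over all domains 392712 of the 490079 bp were covered. At least 50% of the length was covered in 189 domains (89.6%, interval 84.7 to 93.0), against 54.8% of all sgCtrl peaks and 80.5% of the peaks of 1000 to under 2000 bp. The whole length was covered in 33 domains, or 15.6%, where the background over all peaks was 16.1%. The summit of the sgCtrl peak lay under an sgSNHG1 peak in 205 of 211 domains (97.2%, interval 93.9 to 98.7), against 57.6% of all peaks. Since domains were chosen by their length in sgCtrl, a lower length in the other list is partly built into the choice. In the opposite direction, the 137 sgSNHG1 peaks of 2000 bp or more were covered by sgCtrl peaks over a median of 94.9%, and each of them over at least 50%.

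More of the bases not covered lay outside the outermost sgSNHG1 peaks of a domain than between such peaks. This does not place them at the margins of the domains. Where a single sgSNHG1 peak met a domain, every uncovered base counted as outside, as with 2189 of 2419 bp at *CRACD*. Of 97367 bp without an sgSNHG1 peak, 57228 bp (58.8%) lay outside the outermost sgSNHG1 peaks of a domain, and 40139 bp lay in gaps between them. A single sgSNHG1 peak met 131 domains, with a median coverage of 97.4%. In the others the domain was broken into 2 sgSNHG1 peaks (61 domains, median 70.3%), 3 (17 domains, 58.1%) or 4 (2 domains, 64.3%). The longest sgSNHG1 peak over a domain had a median of 1884 bp, was 2000 bp or more in 90 domains (42.7%) and was longer than the domain itself in 58. Of the 137 sgSNHG1 peaks of 2000 bp or more, 47 overlapped no domain.

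Coverage followed the strength of the sgCtrl peak. Over domains with a −log10 p of 10 to 20, a median of 55.8% of the bases was covered, and the medians were 71.3% from 20 to 40, 89.2% from 40 to 80 and 99.3% from 80 on. The peaks of 1000 to under 2000 bp had medians of 48.4%, 75.5%, 95.1% and 99.2% in the same steps, and those of 500 to under 1000 bp had 47.5%, 85.3%, 97.7% and 100%. At a −log10 p from 20 to 80 the domains were thus covered over a smaller share of their length than shorter peaks. Where several sgSNHG1 peaks met a domain, the one with the highest fold enrichment was taken, and its value was above that of sgCtrl in 81 domains and below it in 130. The medians were 3.98 in sgCtrl and 3.89 in sgSNHG1. Above the sgCtrl value were thus 38.4% of the domains, and 45.4% of all 38457 sgCtrl peaks with an sgSNHG1 peak. A change of the mark and a difference in depth or enrichment between the pooled libraries cannot be told apart in these values.

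Domains near chromosome ends were covered less. Within 5 Mb of an end the median coverage was 78.4% over 93 domains, and it was 92.8% over the 118 domains further in. The same order was seen in shorter peaks, with 75.6% and 87.6% for peaks of 1000 to under 2000 bp and 68.2% and 83.7% for those of 500 to under 1000 bp. The domains near ends also had a lower fold enrichment, with a median of 3.23 against 4.78, and a lower −log10 p, with 33.8 against 56.2, and the part of this in the coverage was not tested. Start sites of protein-coding genes were overlapped by 28% of the domains near ends and by 38.1% of those further in. Of the 137 sgSNHG1 peaks of 2000 bp or more, 37 lay within 5 Mb of an end (27%, against 44.1% of the domains). On chromosome 17, 28 domains faced 10 sgSNHG1 peaks of 2000 bp or more, and on chromosome 21, 5 domains faced 0. More sgSNHG1 peaks of that length than domains were found on chromosome 6 with 6 against 4, on chromosomes 10 and 15 with 5 against 4, and on chromosome 22 with 6 against 5.

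The domains over protein-coding start sites were the most completely covered class. Their median coverage was 95.5%, and 69 of 71 were covered over at least 50% of their length. The domains at lncRNA start sites had a median of 92.4%, those with an exon and no such start site 82.7%, those in introns 63.6% and those without a gene 89.0%. Protein-coding start sites also came first among the peaks of 1000 to under 2000 bp. There the median was 97.4%, against 90.1%, 78.1%, 71.8% and 72.5% in the same order of classes. The domains over protein-coding start sites also had the highest median fold enrichment, 5.16, against 3.99, 3.71, 3.72 and 3.26, and its part in the coverage was not tested. One protein-coding gene started under 65 of the domains and 2 under 6. Of the 65, 52 reached further downstream of the start site than upstream (80.0%, interval 68.7 to 87.9), with medians of 1599 bp downstream and 638 bp upstream. The peaks of 1000 to under 2000 bp did so in 80.6% of 1360 cases, so the direction was not particular to the domains. With only the start site of each gene's longest transcript counted, 31 domains remained, and 74.2% of them reached further downstream. Many of the 65 thus lay over another annotated start site of their gene. The summit lay downstream in 47 of the 65, and its median position over all 65 was 317 bp downstream. At the start site itself 90.8% of these domains had an sgSNHG1 peak. At 1000 bp downstream, 84.6% had an sgCtrl peak and 70.8% an sgSNHG1 peak, and at 1000 bp upstream the shares were 29.2% and 30.8%.

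Of 19102 protein-coding genes, 75 had a start site under a domain (0.393%). Among 29 chromatin regulators the number was 3 (10.3%), and in this list 21 genes had any sgCtrl peak at a start site, against 6262 of all protein-coding genes. The 3 were *ARID1A* and *ARID1B*, which encode alternative subunits of the SWI/SNF remodeler, and *NSD1*, a methyltransferase for lysine 36 of histone H3. The domain of *ARID1A* at chr1:26695777-26698105 had 2329 bp, a coverage of 91.0% and a fold enrichment of 8.16 in sgCtrl and 7.91 in sgSNHG1. That of *ARID1B* at chr6:156777941-156779975 had 2035 bp, was covered over 81.3% and had fold enrichments of 8.50 and 8.57. That of *NSD1* at chr5:177131976-177134740 had 2765 bp, of which 87.0% were covered by 2 sgSNHG1 peaks, and fold enrichments of 6.49 and 5.86. The median length of the longest sgCtrl peak at a start site was 1320 bp for the chromatin regulators and 723.5 bp for all protein-coding genes, and in sgSNHG1 it was 1389 and 763 bp. The lists were chosen with earlier results of these data known, and nothing was tested.

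Single genes of 3 other lists had a start site under a domain. They were *E2F3*, a transcription factor of the cell cycle, among 29 cell cycle regulators, *PTBP1*, a repressor of neuronal exons, among 29 splicing and RNA-binding proteins, and *ZNF276* among 503 zinc finger genes. The domain of *E2F3* had 2093 bp, was covered wholly and had fold enrichments of 10.2 in sgCtrl and 10.6 in sgSNHG1. That of *PTBP1* had 2127 bp, was covered over 97.7% and had fold enrichments of 3.25 and 2.95. This domain also lay over an annotated transcript end of *PTBP1*. Another sgCtrl peak at a start site of the gene was higher, with 5.78, and the sgSNHG1 value at its start sites was 7.05. That of *ZNF276* had 2570 bp and was covered over 90.7%. No start site under a domain was found for 20 adrenergic transcription factors, 28 mesenchymal transcription factors, 29 catecholamine, vesicle and neuronal genes, 30 immediate-early and stress genes, 74 replication-dependent histone genes, 39 HOX genes, 29 hosts of small nucleolar RNAs and 20 markers of other tissues. This depended on the length limit, since at 1500 bp 10.3% of the catecholamine, vesicle and neuronal genes, 5% of the adrenergic factors and 2.03% of all protein-coding genes had one. None of 4 factors of the core regulatory circuit of these cells had one either. At the limit of 2000 bp the share over all protein-coding genes was 0.393%, and that of the zinc finger genes was 0.199%. With so low a share, such counts in short lists describe single genes and not the lists. Any sgCtrl peak at a start site was found for 9 of the 20 adrenergic factors, 11 of the 28 mesenchymal factors and 13 of the 29 catecholamine, vesicle and neuronal genes.

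Over the whole gene body, 187 of 19102 protein-coding genes had a domain (0.979%). Of the lists without a start site under a domain, this held for 2 of 20 adrenergic transcription factors, *GATA3* and *SIX3*, for *GATA3* among the 4 factors of the core circuit and for *ZFP36L2* among 30 immediate-early and stress genes. *CCND1* was added to *E2F3* among 29 cell cycle regulators, and the mesenchymal, neuronal, histone, HOX, small nucleolar RNA host and other-tissue lists had 0. At *GATA3*, a transcription factor of the adrenergic circuit, a domain of 2524 bp at chr10:8049336-8051859 lay 1745 bp from the nearest protein-coding start site, over the start of a lncRNA. An sgSNHG1 peak of 2532 bp covered it wholly, and the fold enrichment was 3.96 in sgCtrl and 3.74 in sgSNHG1. At *SIX3*, a homeobox factor of the adrenergic list, a domain of 2597 bp at chr2:44942151-44944747 lay 449 bp from the nearest protein-coding start site. The *SIX3* domain was covered over 70.3%, the longest sgSNHG1 peak had 1328 bp and the fold enrichments were 4.44 and 3.59. Its sequence is the CpG-rich stretch given above. At *CCND1*, which encodes cyclin D1, a domain of 2173 bp lay only 45 bp from a start site of the gene. It was covered over 99.4%, with fold enrichments of 3.71 and 3.98. At *ZFP36L2*, an RNA-binding protein of the immediate-early list, a domain of 2172 bp lay only 7 bp from a start site of the gene. It was covered over all but 1 bp, with fold enrichments of 4.09 and 5.14. These 2 domains thus missed the start-site count by a short distance. The 2 domains of these 4 genes with a higher fold enrichment in sgSNHG1 were those of *CCND1* and *ZFP36L2*.

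The 10 longest domains ranged from 3339 to 4059 bp, and 2 of them lay over a protein-coding start site. The longest, chr5:34189529-34193587, overlapped the pseudogene *GUSBP18* and lay 146316 bp from the nearest protein-coding start site, that of *C1QTNF3*. It was covered wholly by an sgSNHG1 peak of 4066 bp, which was also the longest of its list, and the fold enrichments were 4.47 and 5.03. Stretches of 30 bases from this domain occurred a median of 13 times in the reference, so reads from other copies may be counted there. A domain of 3769 bp ended 172 bp from the start site of *INF2*, which encodes an actin-regulating formin, and was covered over 89.9% by 2 sgSNHG1 peaks. The domain of *CD248* was covered over 82.7% in 3 pieces, and the exonic domain of *APC2* over 75.1% in 3 pieces. At *SEPTIN9*, a cytoskeletal GTPase, a domain of 3590 bp was covered over 85.5%.

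*CDT1*, which licenses replication origins, had the longest domain over a protein-coding start site, with 3421 bp at chr16:88803833-88807253. The start site it covered was an internal one, at 1935 bp from the left edge of the domain. The first annotated start site of *CDT1* lay just outside, at -44 bp from that edge. A single sgSNHG1 peak of 2391 bp began at the left edge of the domain and left its last part bare, so that 69.9% was covered. The fold enrichment was 4.32 in sgCtrl and 5.19 in sgSNHG1. *MTA1*, a subunit of the NuRD deacetylase and remodeling complex, had a domain of 3339 bp with 86.3% under a single sgSNHG1 peak, and fold enrichments of 5.19 and 4.91. *HSF1*, the heat shock factor, had a domain of 3369 bp over exons and an annotated transcript end, with 82.2% covered. A domain of 3393 bp over a processed pseudogene, 23403 bp from the start site of *MDH2*, was covered over 87.1%. The remaining one of these 10, on chromosome 21 in an intron of a lncRNA and 151744 bp from the nearest protein-coding start site, that of *LIPI*, had 3346 bp and was covered over 29.9%.

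Coverage was under 50% in 22 domains, of which 2 lay over a protein-coding start site and 14 within 5 Mb of a chromosome end. Their median −log10 p was 24.6 and the highest was 54.8. The domain covered least, at chr4:56314224-56316642, lay in an exon at an annotated transcript end of *CRACD*, an inhibitor of actin capping, 21 bp from an annotated start site. Of its 2419 bp an sgSNHG1 peak of 230 bp covered 9.51%, and the fold enrichment was 3.69 in sgCtrl and 3.28 in sgSNHG1. The domain of *TOP1MT*, the mitochondrial topoisomerase, had 2364 bp and was covered over 9.94%, with fold enrichments of 2.71 and 2.34. At *LDHD*, a lactate dehydrogenase for the D form, 17.6% of 2177 bp were covered, in the domain whose sequence is shown above. At *ARMC9*, a gene of the ciliary base, 26.9% of 2194 bp were covered, and at an internal start site of *SBNO2* 28.7% of 2144 bp. A domain 3334 bp from the start site of *SMIM1* was covered over 30.7%, that of *SLC25A10*, a mitochondrial carrier, over 32.7%, that of *DIDO1* over 37.2% and that of *TRAF7* over 37.7%. In each of these domains but that of *SBNO2* and of *SLC25A10* the sgSNHG1 fold enrichment was also the lower one. On the long arm of chromosome 4 lay 2 domains, that of *CRACD* and one over a processed pseudogene nearest to *TBC1D9*, which was covered over 47.7%.

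Some domains lay over the starts of a pair of genes. A domain of 2251 bp over the starts of *BRD9*, a bromodomain subunit of SWI/SNF, and *TRIP13*, an ATPase of the mitotic checkpoint, was covered over 81.2%, with fold enrichments of 5.04 and 5.86. Over *KCNG3*, a potassium channel subunit, and *MTA3*, a NuRD subunit, 2092 bp were covered over 99.7%, with fold enrichments of 6.68 and 8.13. Over *PNMA2* and *DPYSL2*, a gene of axon growth, 2074 bp were covered over 76.6%. Over the membrane protein genes *TMEM176B* and *TMEM176A*, 2086 bp were covered over 57.0%, and the fold enrichment was 5.85 in sgCtrl and 4.23 in sgSNHG1. The domain of *TLNRD1* also held the start of a gene without a symbol and was covered over 99.5%.

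In 9 protein-coding genes there were 2 domains each. At *SBNO2*, a gene for a helicase-like regulator of transcription, one of 2400 bp was covered over 99.8% and the other, of 2144 bp, over 28.7%. At *PLEC*, which encodes the cytolinker plectin, a domain of 2085 bp over a start site was covered over 94.3%, and one of 2768 bp, of which 2308 bp lay in 1 exon, over 39.3%. At *ULK1*, a kinase of autophagy, the shares were 58.5% and 100%. At *UBTF*, a factor of ribosomal RNA transcription, they were 100% and 89.7%, at *SEPTIN9* 85.5% and 99.7%, and at *RPTOR*, a subunit of mTORC1, 58.1% and 59.0%. The pairs at *KIF26B*, *SPPL2B* and *ZC3H3* each differed by less than 10 percentage points. These genes were named after their values were seen.

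The domains at start sites of lncRNAs only were led by *LINC02604*, with 2756 bp and a coverage of 88.3%. The domain at *ARHGEF17* and its antisense RNA *ARHGEF17-AS1* had 2421 bp in 1 exon of *ARHGEF17* and was covered over 65.6%, with a higher fold enrichment in sgSNHG1 of 4.88 against 3.69. The domain in *GLIS2* and *PAM16* was covered over 61.6%, and that at *LINC02870* over 99.1%. Strand was not measured, so a domain over overlapping genes of both strands cannot be assigned to one of them.

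Of the 17 domains without an annotated gene, 5 were made of stretches that recur in the reference, and over all domains this held for 16 (7.58%, against 15.5% of all sgCtrl peaks and 9.99% of those of 1000 to under 2000 bp). The longest, chr16:46398550-46401594, had 3045 bp, a GC content of 36.3% and a coverage of 99.9%, and its repeated sequence is given above. A domain of 2694 bp at chr5:49657670-49660363 had the highest −log10 p of all domains, 1197, and fold enrichments of 8.97 and 8.94. It was covered wholly, as was one of 2916 bp that lay 22354 bp from the start site of *WNT9A*. The domain nearest to *HHIPL2*, at 73484 bp, was covered over 67.1%, and that nearest to *CAMSAP1*, at 20712 bp, over 52.6%. The median coverage of the 16 repeated domains was 95.7%. A higher number of copies in the cells than in the reference cannot be told apart from the mark in such stretches, since no input library is named in the sources used here.

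Among 5 short motifs searched on both strands in the 200 bases around the summit, the E-box CACGTG, which MYC and MYCN bind, was found in 21 of 211 domains (9.95%, interval 6.60 to 14.7), in 4.30% of the peaks of 1000 to under 2000 bp and in 4.47% of all sgCtrl peaks. Of domains with a GC content of 60% or more it was found in 10.2%, and of all peaks with that content in 4.87%. The 21 included the domains of *HSF1*, *MTA1*, *CD248*, *FASN*, *GMPPA*, *KLF16* and *PLEC*, and 5 of the 21 lay over a protein-coding start site. The genes given here were picked from the 21 after their values were seen. A second E-box, CAGATG, was found in 10.4% of domains, 9.41% of the peaks of 1000 to under 2000 bp and 11.8% of all peaks. In the same order, the GATA motif AGATAA, which shares the letters AGAT with CAGATG, was found in 0.474% (1 domain), 0.535% and 1.36%. The AP-1 motif TGACTCA was found in 1.42%, 1.21% and 1.90%, and CCAAT in 4.74% (interval 2.59 to 8.50), 7.19% and 9.58%. For each of these motifs the share of the peaks of 1000 to under 2000 bp lay within the interval of the domains. A match describes the reference letters in this window and not the binding of a factor.

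The longest peaks of the sgSNHG1 list were in part others. After the 4066 bp on chromosome 5, the next had 3584 bp at *CENPF*, 3382 bp at *PTP4A3*, 3278 bp at 209992 bp from the start site of *PROS1*, and 3105 bp at *IRF2BPL*. They were covered by sgCtrl peaks over 91.4%, 88.1%, 71.4% and 88.1%, each by 2 sgCtrl peaks. Those at *CENPF* and *IRF2BPL* wholly covered domains of 2806 and 2046 bp. Stretches of 30 bases from the domain at *CENPF* occurred a median of 3 times in the reference.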

How the data were processed

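H3K27ac ChIP-seq of 2 sgCtrl and 2 sgSNHG1 samples was described from 1 peak list per group. Per the labels, reads were processed with cutadapt and BWA on GRCh38, and, per the methods, the authors ran MACS2 on the combined samples of each group with a p-value limit of 1e-06. Each peak in the deposited lists has a score, a fold enrichment (summit signal over background, as a ratio) and −log10 values of p and q. The score and q were not used. Depth per sample is unknown. All peak ends lay within the hg38 reference, which is the build of the files.

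Domains were sgCtrl peaks of 2000 bp or more on chromosomes 1 to 22 without the *MYCN* stretch. Covered bases, annotation classes (GENCODE 44), GC content, motifs and copies of 30-base stretches (every 50 bp) were computed with Python 3.11.15, numpy 2.4.6, pandas 2.3.3 and scipy 1.17.1. Coverage was tested on 1600 simulated intervals and differed from bedtools 2.31.1 in 0. Named genes were the 10 longest and 10 least covered domains, 5 by covered bases, by number of start sites, without a gene and at lncRNA starts, all genes of the lists under a domain, 3 domains on either side of the limit and the 5 longest sgSNHG1 peaks. Other genes were named after their values were seen. A domain was named by the genes that start in it, else those it overlaps, else the nearest start site. Members and lists were chosen with earlier results of these data known. With 1 list per group no test was run. Other lengths, merging, thresholds and annotations were tried. A gene under the naming rule, with its list, is not reported here.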

Additional observations from a re-analysis of the deposited data

How the results depend on the processing

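Of 83 alternative values, 60 stayed within the 95% counting interval of the reported one, or within 1.5 times for numbers and their ratio, 23 did not and none reversed. For short gene lists this interval is wide, so values inside it can still differ by more than 2 times. Some of the 60 could not move and say nothing about stability. A list with a share of 0 at 2000 bp has to stay at 0 at 3000 bp. Adding chromosome X, which held no sgCtrl peak of that length, or asking for a −log10 p of at least 10 left the same 211 domains. The number of domains became 1031 at a limit of 1500 bp, 11 at 3000 bp and 965 with sgCtrl peaks within 500 bp merged. The median coverage and the share of domains covered over at least 50% became 94.9% and 93.4% with sgSNHG1 peaks within 500 bp merged, 95.5% and 97.2% for domains over protein-coding start sites only, and 92.8% and 93.2% without domains within 5 Mb of a chromosome end, an alternative chosen after seeing the data, as was leaving out repeated domains. The share of domains at a protein-coding start site became 48.8% within 1 kb, 55.0% within 3 kb (all peaks: 26.6% and 32.6%), 53.6% with start sites of all gene types (all peaks: 17.5%) and 18.2% at 3000 bp. The share that reached further downstream became 50% at 3000 bp, where 2 domains remained. The share of all protein-coding genes with a start site under a domain became 2.03% at 1500 bp, 0.0105% at 3000 bp and 0.979% for gene bodies, and that of zinc finger genes 1.19% at 1500 bp. Within their intervals, the shares at 1500 bp became 20.7% for chromatin regulators, 10.3% for catecholamine, vesicle and neuronal genes, 5% for adrenergic and 3.57% for mesenchymal factors and 3.45% for small nucleolar RNA hosts. For gene bodies they became 25% for the 4 circuit factors, 10% for adrenergic factors, 6.90% for cell cycle regulators, 3.33% for immediate-early genes and 0.795% for zinc finger genes. At 3000 bp the shares of chromatin regulators, splicing and RNA-binding proteins, cell cycle regulators and zinc finger genes each became 0, since 11 domains remained. No paired analysis was possible because both samples of a group are combined in 1 list, and for the same reason no replicate could be left out. Depth could not be matched between the lists.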
